A study of Mus musculus with 5 samples.

Results

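The ovarian surface epithelium is the single layer of cells that covers the ovary, and 266 cells with its markers were found among 41870 single cells of mouse ovaries that passed the filters on cell quality (0.635%, exact binomial interval 0.561 to 0.716%). The deposited tables held 48163 cells, of which these 266 were 0.552%. The ovaries came from untreated C57BL6/J female mice aged 2, 3, 4, 5 and 6 wk, with 1 library per age, so an age had no replicate. The ovaries were dissociated with trypsin, passed through strainers and sorted for live cells, and the 10x Genomics 3′ chemistry gave counts of unique molecular identifiers (UMIs), each standing for 1 captured RNA molecule. A cell was taken as a surface epithelial cell when it had a UMI of at least 3 of the 5 markers Lgals7 (galectin-7), Krt19 (a keratin), Msln (mesothelin), Muc16 (the mucin known as CA125) and Upk1b (a uroplakin), and no UMI of Pax8 (a transcription factor of rete ovarii and oviduct), Ptprc (CD45 of blood cells) or Cdh5 (VE-cadherin of endothelium). Cells also needed at least 500 detected genes and under 15% of their UMIs from mitochondrial genes. The 5 markers and the 3 absent genes chose the cells, so their levels are a description only. The rule cannot tell the ovary's own surface from other mesothelium near it, such as that of the bursa, and the source of the 266 cells, 32 of which stand apart below, was not tested.

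The surface epithelium is a modified mesothelium: a flat to cuboidal sheet, continuous with the lining of the body cavity, that rests on a basement membrane over the collagen-rich tunica albuginea. It carries keratins and mesothelial glycoproteins like an epithelium and keeps transcription factors of the gonad and mesenchyme such as Wt1. It is torn at each ovulation and closes the wound by division and migration, and cells with the R-spondin receptor Lgr5 have been described in it as progenitors. The ages sampled run from the juvenile to the peripubertal ovary.

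The libraries gave 96, 36, 46, 44 and 44 surface epithelial cells at 2, 3, 4, 5 and 6 wk, with 1180327, 259585, 457595, 721279 and 422682 UMIs in all. The median cell held 10409.5, 6676, 6823.5, 12926 and 9346.5 UMIs, against 13895, 10169, 10835, 12613 and 13416 UMIs in the other cells of the same libraries. Mitochondrial genes took 6.14, 3.99, 6.04, 6.58 and 7.63% of the UMIs of the median surface epithelial cell. Depth was therefore lowest at 3 wk, and the shallow library had the fewest cells. Levels are given as the UMIs of a gene summed over the cells of a library per 1000000 UMIs of those cells (CPM). All intervals are at 95% and cover counting error only, and the spread between mice was not measured. Between any pair of libraries 18 to 35 cell barcodes were shared, none of them by surface epithelial cells.

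A doublet caller, Scrublet, marked 14 of the 266 cells (5.26%) and 1397 of the 41604 other cells (3.36%), and all were kept. Of the 266, 48 cells had at least 3 markers of another cell type (16, 4, 12, 11 and 5 at 2, 3, 4, 5 and 6 wk). Granulosa markers were met in 27 of them, stromal markers in 19, smooth muscle markers in 8 and endothelial markers in 5. Whether these cells were doublets or held free RNA was not tested. Levels of several genes named for their change with age are given with and without them.

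The share of surface epithelial cells was highest at 2 wk. They made up 1.19% (0.964 to 1.45%) of the filtered cells at 2 wk, 0.446% (0.312 to 0.616%) at 3 wk, 0.484% (0.354 to 0.645%) at 4 wk, 0.636% (0.462 to 0.852%) at 5 wk and 0.474% (0.345 to 0.636%) at 6 wk. The interval at 2 wk overlapped none of the others, and the intervals at 3 to 6 wk overlapped each other. The share at 2 wk was 2.67 times that at 3 wk (1.80 to 4.03), 2.46 times that at 4 wk (1.71 to 3.57), 1.87 times that at 5 wk (1.30 to 2.74) and 2.51 times that at 6 wk (1.74 to 3.67). A share of dissociated, strained and sorted cells is not a share of the tissue, and how many cells each ovary lost from its surface was not measured.

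**Figure D1:**
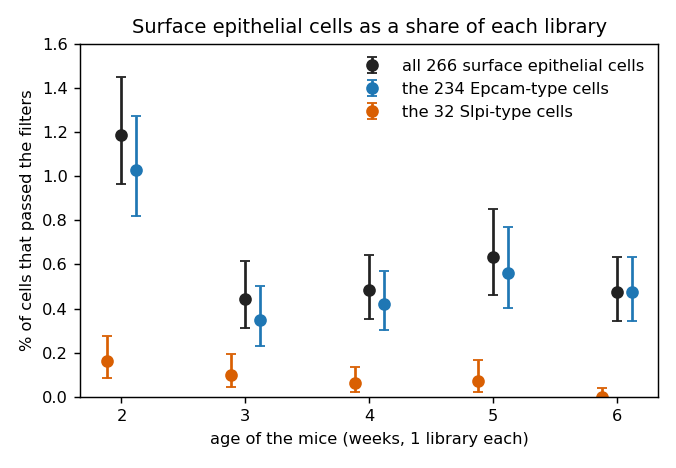
Share of the filtered cells of each library (y axis, %) against age (x axis, weeks, 1 library each) for all 266 surface epithelial cells and for the groups of 234 and 32 cells named Epcam-type and Slpi-type for their genes. Bars are 95% Clopper-Pearson intervals; all cells together stood at 1.19% at 2 wk and between 0.446 and 0.636% later.

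Few cells lay at the edge of the rule. Among cells without a UMI of the 3 excluding genes, 32859 had none of the 5 markers, 4142 had 1, 43 had 2, 24 had 3, 80 had 4 and 162 had all 5. Uroplakin 3b (Upk3b), which the rule did not use, was detected in 100% of the 24 cells with exactly 3 markers, in 11.6% of the 43 cells with 2 and in 99.6% of the 242 cells with 4 or 5. Epcam, an adhesion molecule of epithelia, was detected in 70.8, 20.9 and 85.5% of these cells. The 43 cells just outside the rule had a median of 18961 UMIs, against 6924.5 in the 24 just inside.

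The label was checked against mesothelial and epithelial markers outside the rule, and all 12 of them that were measured well enough stood at least 2-fold higher in the chosen cells than in the other cells of each library. The median ratio over these 12 was 235, beside 1.01 over all 5333 genes tested. Upk3b was at 1896, 1803, 1587, 1126 and 1453 CPM at 2, 3, 4, 5 and 6 wk, against 0.167 to 2.03 CPM in the other cells, and 265 of the 266 cells had a UMI of it. Krt8 and Krt18, partner keratins of simple epithelia, were at 424 to 901 and 625 to 1685 CPM over the libraries, with 34.2 to 48.4 and 14.1 to 21.1 CPM in the other cells. Wt1, the Wilms tumour factor, which granulosa and some stromal cells also carry, differed by 3.66- to 8.01-fold. The chosen cells therefore also carried keratins, a uroplakin and mesothelial markers that the rule had not used.

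**Figure D2:**
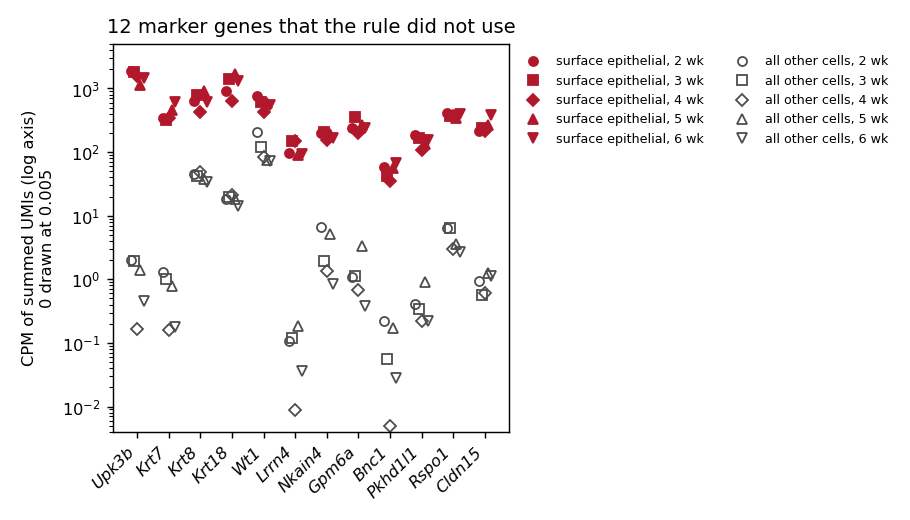
Levels of 12 marker genes that the rule did not use (x axis) in CPM of summed UMIs on a log axis (y axis), 1 point per library; filled points are surface epithelial cells, open points all other cells, and 0 is drawn at 0.005. For each gene the 5 filled points lie above the 5 open points, with Upk3b at 1126 to 1896 against 0.167 to 2.03 CPM.

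Free RNA can put a UMI of a gene into a cell that does not express it, so shares of cells were read beside hematopoietic cells, whose median depth of 8767 UMIs was close to the 9273 of the surface epithelial cells. Krt18 was detected in 94.7% of surface epithelial and 3.75% of hematopoietic cells. For Krt7, a keratin of simple epithelia, the shares were 87.6 and 0.268%, and for Upk3b 99.6 and 0.536%. After every cell was thinned to 3000 UMIs, which left out 4 of the 266 cells (2 at 2 wk and 2 at 3 wk), the shares of surface epithelial cells were 84.0, 63.7 and 93.1%. Epcam was detected in 84.2% (69.8% thinned), which left a group of cells without it.

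The markers of the rule themselves had these levels. Lgals7 was at 1465, 2007, 1816, 2654 and 2924 CPM at 2 to 6 wk, Krt19 at 1641, 1429, 1143, 1327 and 1589.8, and Msln at 349, 532, 544, 625 and 750.0. Muc16 was at 267, 412, 258, 218 and 227 CPM and Upk1b at 475, 339, 313, 529.6 and 733. In the annotation of GRCm38, Msln lies on the minus strand of chromosome 17 (25748613 to 25754378), Muc16 on the minus strand of chromosome 9 (18495455 to 18674530) and Upk3b on the plus strand of chromosome 5 (136038496 to 136046487).

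Against all other cells, 482 of 5333 genes tested (9.04%) were at least 2-fold higher in the surface epithelial cells of each of the 5 libraries and 123 (2.31%) at least 2-fold lower. These shares are the background for the counts of gene lists that follow. A gene was tested when it had at least 100 UMIs in the surface epithelial cells or, scaled to their depth, in the other cells: 4726 genes passed in the former way, 607 only in the latter, and 15283 of the 31053 genes of the tables had no UMI in the 266 cells. Of the genes called, 79.7% were higher. Higher genes with under 100 UMIs in the other cells at that depth, such as Upk3b, passed only through the surface epithelial cells. This largely fixed their direction. How many of the 482 higher genes these were was not counted, so no lean towards higher genes was read from this share. Of the 123 lower genes 31 had 100 UMIs in the surface epithelial cells themselves. The other 92 passed only through the other cells, which largely fixed their direction. In the gene lists that follow these were Lama2, Esr2, Mmp2, Adamts4, Pdgfra and Plagl1. When cells were weighted equally in place of summing their UMIs, 492 were higher and 250 lower. Without the 4 wk library 225 genes were lower, and without the 48 cells with markers of another cell type 223. Of the higher genes 129 were at least 10-fold and 31 at least 100-fold higher in each library.

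The genes that set these cells furthest apart from the other cells were of several kinds. Besides Msln, Muc16, Upk1b and Krt19 of the rule and Upk3b, the 20 highest by their lowest ratio held Lgals2, Clic3, Tm4sf5, Lrrn4, Hsd17b2, Slpi, Dmkn, Chst4, Krt7, Bnc1, Pcnx2, Prr15l, Cldn15, A730046J19Rik and Lypd6b. Lgals2, which encodes a galectin, a lectin that binds galactosides, was at 533, 609, 433, 885 and 1147 CPM at 2 to 6 wk and at 0.132 to 0.9398 CPM in the other cells. Hsd17b2, whose enzyme oxidizes estradiol to estrone and testosterone to androstenedione, was at 117, 96.3, 122, 256 and 442 CPM, at least 453-fold above the other cells in each library. Dmkn, encoding dermokine, a protein secreted by skin epithelium, was at 235, 505, 236, 105 and 144 CPM and highest at 3 wk. Clic3, encoding a chloride intracellular channel protein, was at 55.9, 65.5, 52.4, 33.3 and 30.8 CPM. Tm4sf5, of the tetraspan L6 family, was at 341, 339, 269, 365 and 511 CPM, and Lrrn4, a leucine-rich repeat protein of mesothelium, at 97.4, 150.2, 149, 90.1 and 94.6 CPM. Every library showed each of these 20 genes at least 189-fold higher than the other cells.

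The proteins that hold an epithelial sheet together were unevenly represented. All 4 keratins tested were higher, namely Krt7, Krt8, Krt18 and Krt19, of which Krt19 was a marker of the rule. So were 6 of 7 tight junction genes, among them F11r, Cgn, Cldn3, Cldn10 and Cldn15. Cldn15, a claudin that forms cation pores, was at 215, 239, 214, 265 and 383 CPM against 0.562 to 1.24 CPM. Cldn10 was at 136, 173, 103, 220.4 and 114 CPM and Cldn3 at 64.4, 42.4, 65.6, 168 and 269.7 CPM, the latter higher at 5 and 6 wk.

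Of 11 genes tested of adherens junctions and desmosomes 3 were higher, the P-cadherin gene Cdh3, the plakoglobin gene Jup and Nectin2. Nectin2, an adhesion molecule of adherens junctions, was at 201, 239, 249, 339.7 and 350.1 CPM, 4.29- to 11.4-fold above the other cells. Cdh2, the N-cadherin of mesothelium and granulosa cells, was at 39.0, 26.97, 21.9, 26.3 and 52.0 CPM, and the ratio to the other cells ran from 0.888 to 1.51 without a call. Cdh1, the E-cadherin of most epithelia, had too few UMIs to be tested. Both of these cadherins are named here after their values were seen. Cdh1 was at 15.2, 15.4, 13.1, 59.6 and 52.0 CPM and was detected in 21.4% of the surface epithelial cells (4.96% thinned) and 0.804% of hematopoietic cells.

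Genes of the apical face were higher in 5 of 10 tested, with a median ratio of 5.00. Ezrin (Ezr), which ties microvilli to actin, was at 785, 693, 448, 527 and 622 CPM, 7.79- to 12.6-fold above the other cells. Its partner Slc9a3r1 (the scaffold NHERF1) was at 503, 289, 349.7, 389.6 and 489.7 CPM, 51.0- to 99.2-fold higher, and podocalyxin (Podxl), a sialomucin of apical membranes, was at 318, 235, 247, 269 and 269.7 CPM, 30.01- to 107-fold higher. Crb2, a crumbs protein of the apical polarity complex, was at 28.4 to 44.1 CPM. The 4 mucins and uroplakins tested were all higher, but Msln, Muc16 and Upk1b chose the cells, which fixed their direction, and Upk3b alone did not. Of the 12 listed, 7 had no UMI in these cells.

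Of 21 genes for the matrix under the sheet and its receptors (laminins, collagen IV and integrins) 3 were higher and 2 lower, with a median ratio of 0.709. Lama5, the laminin α5 chain of mature epithelial basement membranes, was at 41.5, 57.8, 35.0, 26.3 and 28.4 CPM against 2.11 to 4.52 CPM, and its receptor chain Itga3 was at 33.9, 50.1, 52.4, 56.8 and 52.0 CPM. The tetraspanin Cd151, which binds this integrin, was at 256, 258, 267, 232 and 263 CPM. Lama2 (laminin α2 of muscle and stroma) and Nid1 (nidogen 1) were the lower pair.

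Transcription factors of epithelium, mesothelium and gonad were higher for 4 of 17 genes tested, Wt1, Bnc1, Bnc2 and Lhx9, and lower for none. Wt1 was at 765, 616, 422, 598 and 556 CPM against 209, 118, 84.0, 74.6 and 71.4 CPM in the other cells. Lhx9, a LIM homeobox factor that the early gonad needs, was at 268, 177, 162, 312 and 353 CPM, 26.1- to 51.5-fold above the other cells. Bnc1, encoding the zinc finger protein basonuclin 1, was at 57.6, 42.4, 35.0, 55.5 and 66.2 CPM and at least 256-fold higher. Gata6, a zinc finger factor that gonadal cells share, was at 413, 258, 238, 265 and 213 CPM and Klf4, a Krüppel-like factor of epithelia, at 835, 1002, 551, 849.9 and 128 CPM, both without a call. Of 3 HOX genes tested, Hoxc6 and Hoxc8 were higher, Hoxc8 at 110.1, 112, 94.0, 151 and 185 CPM.

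Genes reported for progenitors of the surface epithelium were higher in 5 of 6 tested, namely Lgr5, Lgr6, Aldh1a2, Ly6e and Axin2. Lgr5 was at 133, 100.2, 138, 268 and 459 CPM at 2, 3, 4, 5 and 6 wk, 155- to 959-fold above the other cells. It was detected in 172 of 266 cells (64.7%, or 40.5% after thinning) and in 0.536% of hematopoietic cells. By library, Lgr5 was detected in 56.3, 44.4, 56.5, 75.0 and 97.7% of the surface epithelial cells at 2, 3, 4, 5 and 6 wk, and in 29.8, 29.4, 37.0, 43.2 and 72.7% after thinning. Detection of Lgr5 was thus widest at 6 wk on either scale. Its relative Lgr6 was at 18.6, 69.3, 54.6, 86.0 and 104 CPM, lowest at 2 wk. Aldh1a2, which makes retinoic acid, was at 708, 478, 284, 555 and 750.0 CPM, 39.8- to 273-fold higher, and Axin2, a target of WNT signals, at 98.3, 77.05, 41.5, 48.5 and 68.6 CPM.

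Of 9 WNT and R-spondin genes 3 were higher, Rspo1, Nkd1 and Wls. Rspo1, the R-spondin whose loss lets testis features appear in the ovary and a ligand of LGR5, was at 410.1, 369.8, 365, 349 and 393 CPM in the same cells, 57.7- to 149-fold above the other cells, and varied little between libraries. Wnt4, a WNT of the developing ovary, was at 384, 493, 245, 202 and 189 CPM and its ratios of 1.61 to 2.54 gave no call.

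Among 9 hormone receptors tested 1 was higher and 1 lower, and both were estrogen receptors. Esr1 (estrogen receptor α) was at 102, 143, 67.7, 99.8 and 89.9 CPM in surface epithelial cells and 12.8, 13.3, 13.97, 17.3 and 9.70 CPM in the other cells. Esr2 (estrogen receptor β, the receptor of granulosa cells) was at 11.9, 15.4, 43.7, 26.3 and 23.7 CPM against 45.4, 89.1, 159, 83.0 and 117 CPM. Esr1 was above the other cells in each library. Esr2 had 67 UMIs in the surface epithelial cells and passed the filter only through the other cells, which largely fixed its lower call. Amhr2, the receptor of anti-Müllerian hormone, was at 389, 327, 380.2, 538 and 579.6 CPM, and its ratios of 1.95 to 5.05 missed the call in 1 library.

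Growth factors and their binding proteins were higher in 7 of 23 tested and lower in 1. Igfbp5, which binds insulin-like growth factors, was among the strongest of these at 6183, 5231, 3883, 6491 and 7149.6 CPM, against 544, 187, 45.8, 93.2 and 95.1 CPM in the other cells. Igfbp6, which prefers IGF2, was at 1583, 3336, 1803, 1173 and 1199 CPM and Igfbp2 at 633, 104, 398, 319 and 121 CPM. Igfbp7 was the lower one, at 125, 216, 256, 226 and 128 CPM against 694, 646, 575, 1231 and 1008 CPM. Of the fibroblast growth factors, Fgf9 was at 51.7, 23.1, 48.1, 31.9 and 44.95 CPM and Fgf18 at 55.9, 96.3, 54.6, 49.9 and 49.7 CPM. Neither exceeded 3.52 CPM in granulosa or stromal cells. Fgf1 was at 74.6, 235, 59.0, 111 and 18.9 CPM, and Pdgfa, a ligand for mesenchymal cells, at 179, 243, 149, 237 and 269.7 CPM. The 32 Slpi-type cells described below held 228 of the 264 UMIs of Fgf1. In the Epcam-type cells Fgf1 was at 17.0, 20.8, 5.48, 6.06 and 18.9 CPM.

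Complement and antimicrobial genes formed the largest group by number of higher genes among the 24 lists, with 11 of 16 higher, 1 lower and a median ratio of 6.23. C3, the central complement component, was at 363, 1903, 684, 595 and 61.5 CPM, 20.1- to 205-fold above the other cells and highest at 3 wk. The 32 Slpi-type cells described below held 1084 of its 1691 UMIs. In the Epcam-type cells C3 was at 181, 889, 373, 126 and 61.5 CPM, and 71 of the 234 cells (30.3%) had a UMI of it. Single cells held 64, 57 and 27 of their 171 UMIs at 3 wk, and a single cell 75 of the 136 at 4 wk. Serping1, the inhibitor of C1, was at 408, 986, 514, 500.5 and 423 CPM, C2 at 153, 204, 208, 236 and 151 CPM, and Cd55, which breaks up C3 convertases on the cell's own surface, at 128, 143, 166, 236 and 402 CPM. C1ra, C1s1, Slpi, Wfdc2, Il18, Il33 and Cxcl16 were the other higher genes.

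Of 6 MHC class I genes 3 were higher, H2-K1, H2-T23 and the peptide-loading factor Tapbp. H2-K1 was at 229.6, 324, 380.2, 419 and 433 CPM. Of 12 interferon-stimulated genes Oasl2, Xaf1 and Gbp2 were higher and Bst2 (tetherin) was lower. Gbp2, a guanylate-binding protein, was at 345, 362, 240.4, 316 and 289 CPM, 20.1- to 82.7-fold above the other cells, and Oasl2 at 169, 289, 155, 279 and 220.0 CPM, 10.0- to 49.0-fold higher. The other 8 interferon-stimulated genes tested gave no call.

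Of 20 proteases and inhibitors 4 were higher and 3 lower, of which Serpine2 alone had 100 UMIs in the surface epithelial cells. Plat, the tissue plasminogen activator, was at 96.6, 50.1, 24.0, 83.2 and 89.9 CPM, Timp2, an inhibitor of metalloproteinases, at 470.2, 755, 579, 589 and 743 CPM, and Spint2, an inhibitor of serine proteases, at 341, 100.2, 80.9, 320.3 and 532 CPM. Serpinb9 was the remaining higher gene. Mmp2 (gelatinase A), Serpine2 and Adamts4 were lower, Mmp2 at 21.2, 26.97, 28.4, 16.6 and 23.7 CPM against 59.3 to 204 CPM. Of 6 prostaglandin genes Ptgs1 (cyclooxygenase 1) was higher, at 76.3, 96.3, 78.7, 56.8 and 82.8 CPM and 20.1- to 95.2-fold above the other cells. Of 6 retinoid genes Aldh1a2 and Rarres2 were higher, and Rarres2, which encodes the attractant chemerin, was at 1081, 1907, 1440.1, 1561 and 1441 CPM.

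The remaining lists held few calls. None of 11 mesenchymal genes was higher, and 3 were lower (Zeb2, Acta2 and Pdgfra). Vimentin (Vim) was at 712, 1171, 538, 718 and 499 CPM against 625, 480.4, 517, 771 and 523 CPM without a call. Of 25 immediate-early and heat-shock genes 1 was higher, Hspb1 (HSP27), at 858, 1599, 817, 948 and 1181 CPM and 10.8- to 30.5-fold above the other cells. Fos, an immediate-early gene that dissociation is known to induce, was at 4708, 5008, 3383, 4356 and 1304 CPM against 2671, 2389, 2429, 3501 and 2486 CPM, with the lowest value at 6 wk. None of 7 BCL2 family genes was called, and of 10 imprinted genes of fetal growth 1 was lower (Plagl1, tested only through its level in the other cells).

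**Figure D3:**
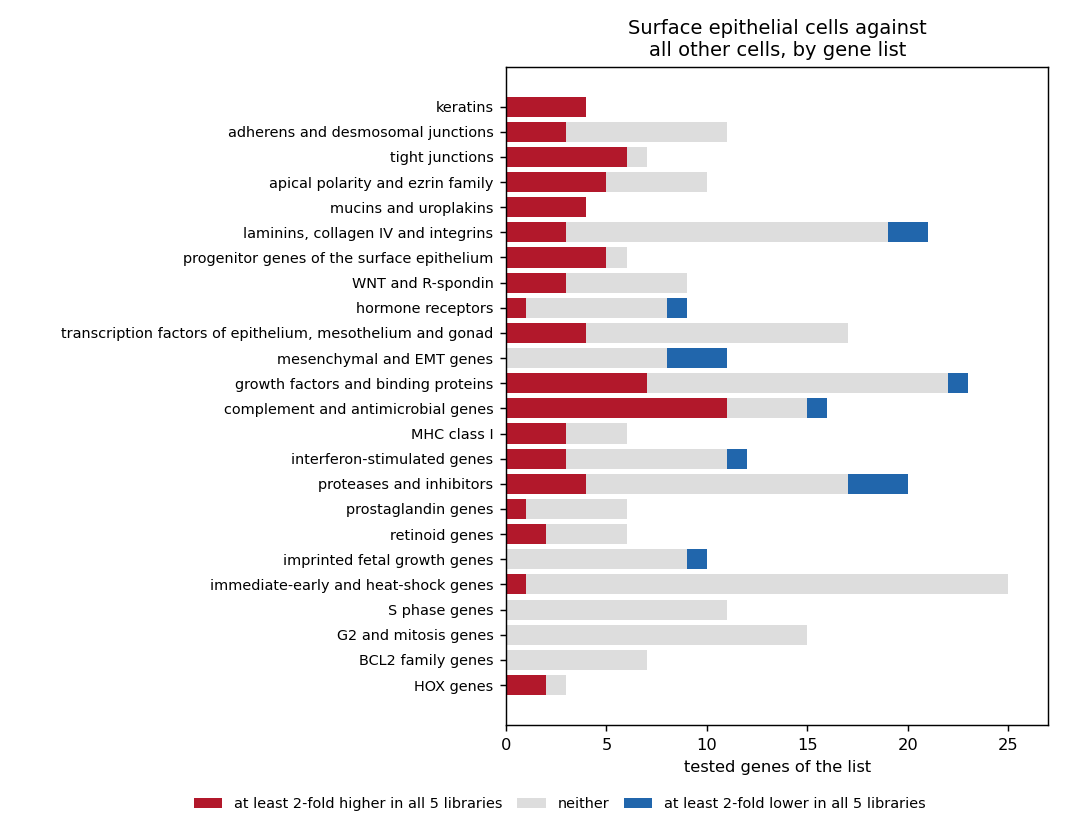
Number of tested genes (x axis) in each of 24 gene lists (y axis) that were at least 2-fold higher in surface epithelial cells than in all other cells in all 5 libraries (red), at least 2-fold lower (blue) or neither (grey). Complement and antimicrobial genes have 11 higher genes of 16 and keratins 4 of 4, while the S phase, G2 and mitosis and BCL2 family lists have none. Krt19 of the keratins and Msln, Muc16 and Upk1b of the mucins and uroplakins were used to choose the cells.

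The 10 lowest genes against the other cells by their highest ratio were Lama2, Kcnk2, Myh11, Cnn1, Col15a1, Fndc5, Dpysl3, Ccdc3, Clec1a and Lamc3. Lama2 was at 13.6, 3.85, 8.74, 8.32 and 2.37 CPM against 105, 77.5, 61.0, 58.8 and 61.0 CPM in the other cells. Kcnk2, a potassium channel opened by stretch of the membrane, was at 5.93, 11.6, 19.7, 13.9 and 21.3 CPM against 63.5, 99.9, 101, 72.1 and 122 CPM. Col15a1, a collagen of basement membrane zones, was at 2.54, 7.70, 4.37, 4.16 and 2.37 CPM against 23.4, 32.2, 42.4, 42.1 and 34.7 CPM. All 10 had under 100 UMIs in the surface epithelial cells and were tested only through their level in the other cells. In every library each of the 10 was at most 0.270 times the level of the other cells, and all but Fndc5 were higher in stromal than in granulosa cells.

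Proliferation genes gave no call in any of 11 S phase genes or 15 genes of G2 and mitosis, with median ratios of 0.645 and 0.432. Cells with at least 5 detected genes of G2 and mitosis numbered 6, 1, 5, 3 and 3 of the surface epithelial cells at 2, 3, 4, 5 and 6 wk (6.25, 2.78, 10.9, 6.82 and 6.82%). In the other cells these shares were 18.0, 15.4, 20.3, 16.5 and 19.1%. Depth differed too, as given for the median cells, and the share was not thinned. All 5 such cells at 4 wk also had 3 markers of another cell type and 3 of them were called doublets, while at 5 wk none of the 3 had either. No difference between the cell groups and no cycling was read from these shares.

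Related cell types of the same libraries were compared directly. Against 16036 granulosa cells, the supporting cells of the follicle, chosen by at least 3 of Foxl2, Amh, Inha, Fst and Nr5a2, 644 of 5442 genes (11.8%) were at least 2-fold higher in each library and 161 (2.96%) lower. Against 8354 stromal cells, chosen by at least 3 of Dcn, Lum, Mmp2, Mfap4 and Pdgfra, 559 of 5272 genes (10.6%) were higher and 261 (4.95%) lower. Of the 482 genes higher than in all other cells, 361 (74.9%) were higher than in granulosa and in stromal cells alike. These comparisons share the surface epithelial cells and are not independent.

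Outside the rule, Upk3b separated the cells furthest from granulosa cells, by at least 6301-fold in each library, and Lgals2 by at least 5101-fold. Gpm6a, a membrane glycoprotein known from neurons, was also among the 10 highest against both granulosa and stromal cells. Against stromal cells Upk3b was at least 2025-fold and Krt7 at least 1623-fold higher. Pkhd1l1, which encodes a large secreted or membrane-bound fibrocystin-like protein, joined the 10 highest there.

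The third comparison was with 70 Pax8-positive epithelial cells, chosen by a UMI of Pax8 and of at least 3 of Krt8, Krt18, Epcam, Wfdc2 and Cdh16 (43, 22, 3, 2 and 0 at 2, 3, 4, 5 and 6 wk), so it could be made at 2 and 3 wk alone. In both libraries 186 of 3001 genes (6.2%) were at least 2-fold higher in surface epithelial cells and 287 (9.56%) lower. The genes that chose the Pax8-positive cells had these levels beside the surface epithelium, given as a description: pooled over the libraries Krt8 was at 676 CPM in surface epithelial and 1017 CPM in Pax8-positive cells, Krt18 at 1158 and 1208 CPM, and Epcam at 649 and 489.6 CPM. The 10 genes with the highest lowest ratio were Slpi, Cldn10, Ces2g, Lgals2, Apoc1, Jdp2, Fgf1, Lgr5, Tm4sf5 and Dcn. Cldn10 was 33.3- and 34.3-fold higher at the 2 ages, Ces2g, a carboxylesterase, 17.5- and 21.5-fold, and Lgr5 12.2- and 19.8-fold. Slpi, Fgf1 and Dcn were carried mainly by a small group of the surface epithelial cells described with the split into 2 groups of cells.

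Of other cell types, several defining markers were at 0. Laptm5 and Tyrobp of blood cells and Ddx4, Dazl and Zp2 of germ cells had no UMI in the 266 cells, nor had Lhcgr of theca, Cdh16 of rete ovarii or Ccl21a of lymphatics. All 5 smooth muscle markers tested were lower, as were Ccl21a, the 1 lymphatic marker tested, 4 of 5 stromal markers (not Dcn, decorin) and 2 of 5 granulosa markers (Inha and Nr5a2). Of these lower markers 1 of smooth muscle (Tagln), 1 of stroma (Mfap4) and both of granulosa had 100 UMIs in the surface epithelial cells. The others passed the filter only through the other cells, so their lower call was largely fixed by it. Of 3 theca, 1 pericyte and 1 erythrocyte marker tested none was called, and no blood cell or germ cell marker had enough UMIs to be tested. Epcam and Wfdc2, which rete ovarii and oviduct share with other epithelia, were both higher. The summed stromal markers were at 1256, 2219, 1379, 1540.3 and 662 CPM at 2, 3, 4, 5 and 6 wk, against 1570.3, 1041, 872, 1173 and 1063 CPM in the other cells, and so above them at 3, 4 and 5 wk. In the Epcam-type cells described below, the larger part of the 266, they were at 557, 634, 669, 677 and 662 CPM. Dcn gave 3807 of their UMIs in the 266 cells. The summed granulosa markers were at 689.6, 562, 1989, 833 and 263 CPM at 2, 3, 4, 5 and 6 wk, against 2396, 4029.9, 4252, 2563 and 3442 CPM in the other cells. They were highest at 4 wk, the library with the most cells of 3 granulosa markers (9). Inha, the inhibin α subunit of granulosa cells, was at 399, 389, 1464, 665 and 182 CPM, and without the 48 cells with 3 markers of another type at 62.0, 97.2, 178, 77.2 and 108 CPM, where Inha is itself among the markers that set these cells aside.

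A pair of endothelial genes were higher in the surface epithelial cells in each library. Esam, an adhesion molecule of endothelial junctions, was at 197, 189, 181, 211 and 291 CPM against 7.63, 4.94, 6.96, 37.3 and 15.6 CPM in the other cells. Kdr, the receptor VEGFR2, was at 99.97, 173, 103, 83.2 and 99.4 CPM against 7.27, 5.27, 5.62, 35.6 and 9.72 CPM. Without the 48 cells with markers of another type Esam was at 233, 228, 326, 236 and 320.2 CPM and Kdr at 120.4, 175, 158, 102 and 105 CPM. Defining genes of endothelium were near 0: pooled over the libraries Pecam1 was at 1.32 CPM, Flt1 at 0.986 and Cd93 at 0.329 CPM, where 631 endothelial cells, chosen by Cdh5 and at least 3 of these markers, had 433, 610 and 610 CPM, while Esam was at 210 and 526 CPM and Kdr at 103 and 484 CPM in the 2 cell types. Cdh5 was at 0 by the rule.

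The 266 cells were not uniform. After their levels had been seen, cells were split by whether they had a UMI of more genes of a set of 6 (Slpi, Lgals3, Cd34, C3, Ogn and Col14a1) than of another set of 6 (Epcam, Lgr5, Lhx9, Amhr2, Aldh1a2 and Lgals2). This gave 32 cells called Slpi-type and 234 called Epcam-type, names that stand for these genes and for no cell type. All 32 had at least 4 genes of the former set and at most 3 of the latter, 208 of the 234 had the opposite, and 16 cells had numbers that differed by 0 or 1. Because the sets were picked on these cells, the split and what follows is a description without a test.

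The Slpi-type cells met the rule as fully as the rest: 20, 9 and 3 of them had 5, 4 and 3 of the markers, against 142, 71 and 21 of the Epcam-type. Upk3b was detected in 32 of 32 and 233 of 234 cells, at 1664 and 1589 CPM. Of the mesothelial markers outside the rule, 4 more lay within 2-fold between Slpi-type and Epcam-type cells: Krt7 was at 278 and 421 CPM, Bnc1 at 52.2 and 53.8, Rspo1 at 487 and 369.7 and Cldn15 at 397 and 234 CPM. Levels were over 2-fold lower in Slpi-type cells for Wt1 (293 and 675 CPM), Krt8 (328 and 721), Krt18 (557 and 1235) and Pkhd1l1 (81.2 and 164). They were over 2-fold higher for Lrrn4 (269.6 and 86.8 CPM), Nkain4 (536 and 141) and Gpm6a (467 and 222). Median depth was 10007.5 and 9221.5 UMIs, Scrublet called 2 and 12 of them doublets, and at least 3 stromal markers were met in 2 and 17.

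Pooled over the libraries, 197 of 4726 genes (4.17%) were at least 2-fold higher in Slpi-type than in Epcam-type cells and 466 (9.86%) lower, by a fold of pooled CPM and without a check over libraries. Slpi, the secreted inhibitor of leukocyte proteases, was at 3189 CPM against 41.2 CPM, and was detected in 27 of 32 (84.4%) and 30 of 234 cells (12.8%), beside 4.02% of hematopoietic cells. Igf1 (insulin-like growth factor 1) was at 2099 against 74.9 CPM, and Fgf1 at 661 against 13.4 CPM. Matrix genes were at high levels in the Slpi-type cells, with Dcn at 6888 against 531 CPM, Col1a1 at 2563 against 105 CPM and Col3a1 at 4517 against 607 CPM.

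Levels in the stromal cells of the same libraries stand beside these. The stromal cells were chosen by Dcn, Lum, Mmp2, Mfap4 and Pdgfra, so their levels of these 5 are a description. Dcn and Col1a1 were at 2214 and 1619.6 CPM in stromal cells. Slpi and Fgf1 were at 0.0492 and 0.590 CPM there. Lum (lumican), Mmp2, Mfap4 and Pdgfra, at 505, 334, 679.8 and 190.4 CPM in stromal cells, were at 26.1, 8.70, 26.1 and 5.80 CPM in Slpi-type and 19.7, 23.7, 37.1 and 12.6 CPM in Epcam-type cells.

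Genes at higher levels in the Epcam-type cells included Epcam, Lgr5 and Lhx9 of the split itself and others that it had not used. Epcam was at 731 CPM in them and 2.90 CPM in Slpi-type cells, and Lgr5 at 234 and 2.90 CPM. Hsd17b2 was at 219 CPM and Tspan1, a tetraspanin, at 176 CPM, with no UMI of either in the 32 Slpi-type cells. With 344943 UMIs in those cells, the exact interval for no UMI reached up to 10.7 CPM. Lhx9 was at 300.4 and 0 CPM. Star, which brings cholesterol into mitochondria, was at 264 and 11.6 CPM, and Gng13, a G protein γ subunit, at 435 and 8.70 CPM. By list, summed progenitor genes were at 783 CPM in Slpi-type and 2559 CPM in Epcam-type cells, and keratins at 2206 and 3954 CPM. Complement and antimicrobial genes were at 10309 and 2535 CPM and mesenchymal genes at 18107 and 3948 CPM. Lgr5 and Aldh1a2 of the progenitor list and Slpi and C3 of the complement list made the split, which partly fixed these sums. Slpi and C3 were at 3189 and 3143 CPM in Slpi-type and 41.2 and 225 CPM in Epcam-type cells.

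Slpi-type cells numbered 13, 8, 6, 5 and 0 at 2, 3, 4, 5 and 6 wk, or 13.5, 22.2, 13.0, 11.4 and 0% of the surface epithelial cells. At 6 wk 0 of 44 cells allows a share of up to 8.04% by the exact interval. In the Slpi-type cells Slpi was at 4468, 4487, 1388 and 1904 CPM at 2, 3, 4 and 5 wk. In the Epcam-type cells it was at 3.79, 93.6, 24.7, 62.1 and 92.3 CPM at 2 to 6 wk.

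**Figure D4:**
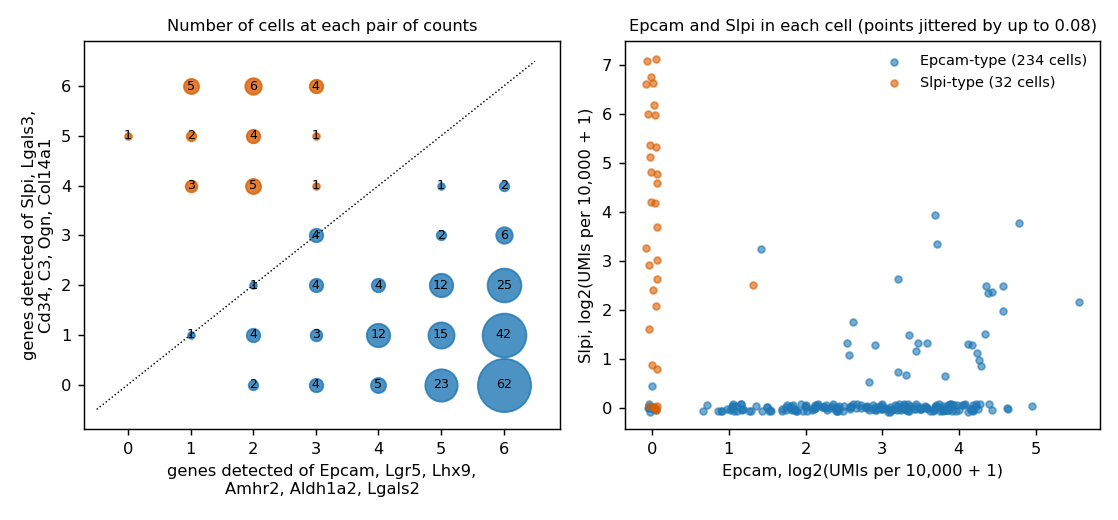
Left, number of surface epithelial cells (bubble area and figure in it) by genes detected of the set with Epcam (x axis) and of the set with Slpi (y axis); the dotted line marks equal numbers. Right, Epcam (x axis) against Slpi (y axis) in each cell as log2(UMIs per 10000 + 1), jittered by up to 0.08: of the 32 Slpi-type cells (orange) 27 had a UMI of Slpi and 1 had one of Epcam, against 30 and 223 of the 234 Epcam-type cells (blue).

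Across ages the libraries at 5 and 6 wk were compared with those at 2 and 3 wk, and a gene was called when all 4 ratios between them were at least 2 or at most 0.5. Of 4726 genes with at least 100 UMIs in surface epithelial cells 36 (0.762%) were higher at 5 and 6 wk and 33 (0.698%) lower. In the other cells of the same libraries 37 (0.783%) and 31 (0.656%) of the same genes were, which is a like number. The counts in the surface epithelial cells depend on the libraries and the filter: without 2 wk they were 252 and 114, without 3 wk 73 and 70, without 5 wk 88 and 168 and without 6 wk 53 and 52, where 2 of the 4 ratios remain, and with at least 50 UMIs 59 and 62. With 1 library per age there is no replicate and no test, and the headers of the count tables name Cell Ranger 3.1.0 at 2, 3 and 4 wk and 6.0.1 at 5 and 6 wk, so age and software version cannot be told apart. Of the 36 higher genes 25 had a value at 4 wk between the 2 pairs of libraries, as had 23 of the 33 lower ones. Of the genes called in the surface epithelial cells 8 of the 36 and 4 of the 33 were also called in the other cells.

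The 10 genes with the highest least ratio were Svs5, Grb14, Nt5e, Anpep, Inhba, Ctsh, Gm42418, Sectm1b, Qpct and Angpt2. Svs5, known as a secretory protein of the seminal vesicle, was at 5.08, 7.70, 45.9, 112 and 166 CPM at 2, 3, 4, 5 and 6 wk, a pooled ratio of late to early ages of 23.8 (11.8 to 56.0). Nt5e, the ectoenzyme CD73 that makes adenosine, was at 14.4, 15.4, 24.0, 79.0 and 102 CPM, with a ratio of 5.99 (3.72 to 10.1). In the other cells the ratios were 2.18 for Svs5 and 0.728 for Nt5e. Both genes were low at 2 and 3 wk and highest at 5 and 6 wk in the surface epithelial cells.

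Anpep (aminopeptidase N), Ctsh (cathepsin H), Qpct (glutaminyl cyclase) and Sectm1b rose 6.53-, 4.88-, 3.40- and 4.02-fold by the pooled ratio, with 0.622-, 1.25-, 1.34- and 0.406-fold in the other cells. Angpt2 (angiopoietin 2) had ratios of 3.65 in surface epithelial and 3.72 in the other cells. Gm42418 and AY036118, which share sequence with the ribosomal RNA precursor, and Lars2, a mitochondrial leucyl-tRNA synthetase gene, the latter pair named after their values were seen, had ratios of 6.23, 6.60 and 3.96 in these cells and 6.10, 5.99 and 4.70 in the others. These 3 genes had like ratios in the surface epithelial and the other cells.

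Of the 6 progenitor genes tested 3 were called higher with age, Aldh1a1, Ly6e and Lgr5. Ly6e, a GPI-anchored protein of the Ly6 family, was at 575, 709, 1193, 1640.1 and 2314 CPM, and the pooled ratio was 3.15 (2.91 to 3.41), beside 1.49 in the other cells. Lgr5 had a pooled ratio of 2.66 (2.23 to 3.19), beside 0.793. In the Epcam-type cells alone Lgr5 was at 148, 135, 173, 292 and 459 CPM, which missed the call because the ratio of 5 to 2 wk was under 2. Aldh1a1, which oxidizes retinaldehyde, was at 98.3, 65.5, 253, 258 and 258 CPM, with its lower values at 2 and 3 wk, and had ratios of 2.79 and 2.17.

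Hsd17b2 rose 2.87-fold and had a ratio of 1.03 in the other cells. Among antigen presentation genes, H2-D1 was at 128, 96.3, 153, 295 and 341 CPM and H2-T23 at 23.7, 23.1, 15.3, 62.4 and 61.5 CPM, with ratios of 2.55 and 2.63. In the other cells H2-D1 and H2-T23 had ratios of 3.40 and 3.83. Their higher values at 5 and 6 wk were thus seen in the whole library.

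The 10 lowest genes were Amh, Prph, Fxyd3, Ccnd1, Peg3, Slc18a2, Col5a2, Wfdc10, Nnat and Top2a. Prph, the intermediate filament peripherin of neurons, was at 122, 177, 13.1, 19.4 and 21.3 CPM at 2, 3, 4, 5 and 6 wk, a late to early ratio of 0.152 (0.0943 to 0.236). Fxyd3, a regulator of the sodium pump, was at 117, 166, 48.1, 20.8 and 11.8 CPM, a ratio of 0.139 (0.0830 to 0.221). The imprinted genes Peg3, Meg3 and Cdkn1c were called lower too, and Cdkn1c, a cell cycle inhibitor, is named after its values were seen. Peg3 was at 181, 208, 59.0, 34.7 and 40.2 CPM, Meg3 at 587, 720.4, 402, 222 and 59.1 CPM and Cdkn1c at 135, 123, 59.0, 56.8 and 28.4 CPM. Their ratios were 0.197, 0.265 and 0.349, beside 0.318, 0.590 and 0.677 in the other cells.

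Some levels differed without the cells that had markers of another type. Amh, the anti-Müllerian hormone of granulosa cells, was at 121, 61.6, 212, 1.39 and 9.46 CPM over all surface epithelial cells and at 4.77, 4.86, 19.2, 0 and 8.50 CPM without the 48 cells with 3 markers of another type, and granulosa cells had 489 CPM. Amh is among the granulosa markers that set the 48 cells aside, and the genes that follow are not. Slc18a2 was at 61.0, 19.3, 72.1, 1.39 and 4.73 CPM with and 5.96, 4.86, 9.60, 2.27 and 0 CPM without these cells. Inhba, the activin βA subunit, was at 5.93, 15.4, 37.2, 176 and 71.0 CPM with and 7.15, 9.72, 4.8, 11.3 and 25.5 CPM without them. Grb14, among the 10 genes with the highest ratio, was at 14.4, 11.6, 227, 103 and 149 CPM with and 2.38, 14.6, 33.6, 13.6 and 14.2 CPM without them. Wfdc10, among the 10 lowest, was at 87.3, 15.4, 50.3, 4.16 and 2.37 CPM with and 15.5, 4.86, 9.60, 0 and 2.83 CPM without them. Top2a, a topoisomerase of dividing cells, was at 30.5, 26.97, 238, 8.32 and 2.37 CPM with and 29.8, 19.4, 4.8, 6.81 and 2.83 CPM without them. Its highest value, at 4 wk, rested on these cells. Nnat, an imprinted gene, was at 76.3, 77.05, 39.3, 20.8 and 11.8 CPM with and 38.2, 24.3, 14.4, 2.27 and 8.50 CPM without them. Without the 48 cells several genes named above, not these alone, were over 1.5 times higher at 4 wk: Ly6e was then at 652, 841, 1973, 1965 and 2369 CPM at 2 to 6 wk, Hsd17b2 at 118, 117, 230.4, 245 and 482, Cldn3 at 65.6, 48.6, 120.0, 145 and 272 and Upk3b at 2250.0, 2012, 2722, 1200.5 and 1612 CPM. Ly6e and Hsd17b2 at 4 wk then lay near their levels at 5 wk. Without these cells Svs5 was at 4.77, 9.72, 33.6, 161 and 164 CPM, Lgr5 at 155, 102, 221, 338 and 451, Prph at 157, 87.5, 9.60, 15.9 and 25.5 and Peg3 at 202, 243, 96.0, 31.8 and 31.2. Without them 3375 genes in place of 4726 had 100 UMIs. Of the 36 genes higher with age 24 were still called, 10 had too few UMIs to be tested and 2 were tested and not called. Of the 33 lower genes these numbers were 16, 13 and 4, the 4 being Cd34, Col1a1, Fbln2 and Zbtb7c. Grb14, Inhba, Amh, Slc18a2, Wfdc10, Nnat and Top2a were among those with too few UMIs.

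In the 234 Epcam-type cells 34 of 4287 genes (0.793%) were higher at 5 and 6 wk and 27 (0.63%) lower, and 31 of the 36 higher and 21 of the 33 lower genes of all surface epithelial cells were among them. Of the 12 other lower genes 7 had under 100 UMIs in the Epcam-type cells and were not tested there: Ccnd1, Cd34, Col5a2, Fcor, Fndc1, Lgals3 and Top2a. Their pooled late to early ratios were below 1 in these cells too, as for Ccnd1 (0.0918 over all cells and 0.105 in Epcam-type cells), Col5a2 (0.195 and 0.197) and Cd34 (0.274 and 0.470). For Cd34 the libraries did not all go this way, with 48.3, 15.6, 41.1, 24.2 and 14.2 CPM in the Epcam-type cells and the 5 wk level above that at 3 wk. The 5 tested there and not called were Slpi, Col1a1, Golim4, Jdp2 and Fstl1. Slpi had a ratio of 0.281 over all cells and 4.19 in Epcam-type cells. The latter value rests on the 2 wk library, with 4 UMIs of Slpi, since the level at 3 wk was no lower than at 5 or 6 wk in these cells, and 1 cell held 23 of the 41 UMIs at 5 wk and 1 cell 19 of the 39 at 6 wk. Col1a1 had ratios of 0.251 and 0.525, with levels of 145, 72.8, 112, 81.8 and 52.0 CPM in Epcam-type cells, where 5 wk was not below 3 wk. Golim4 had ratios of 0.290 and 0.314.

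**Figure D5:**
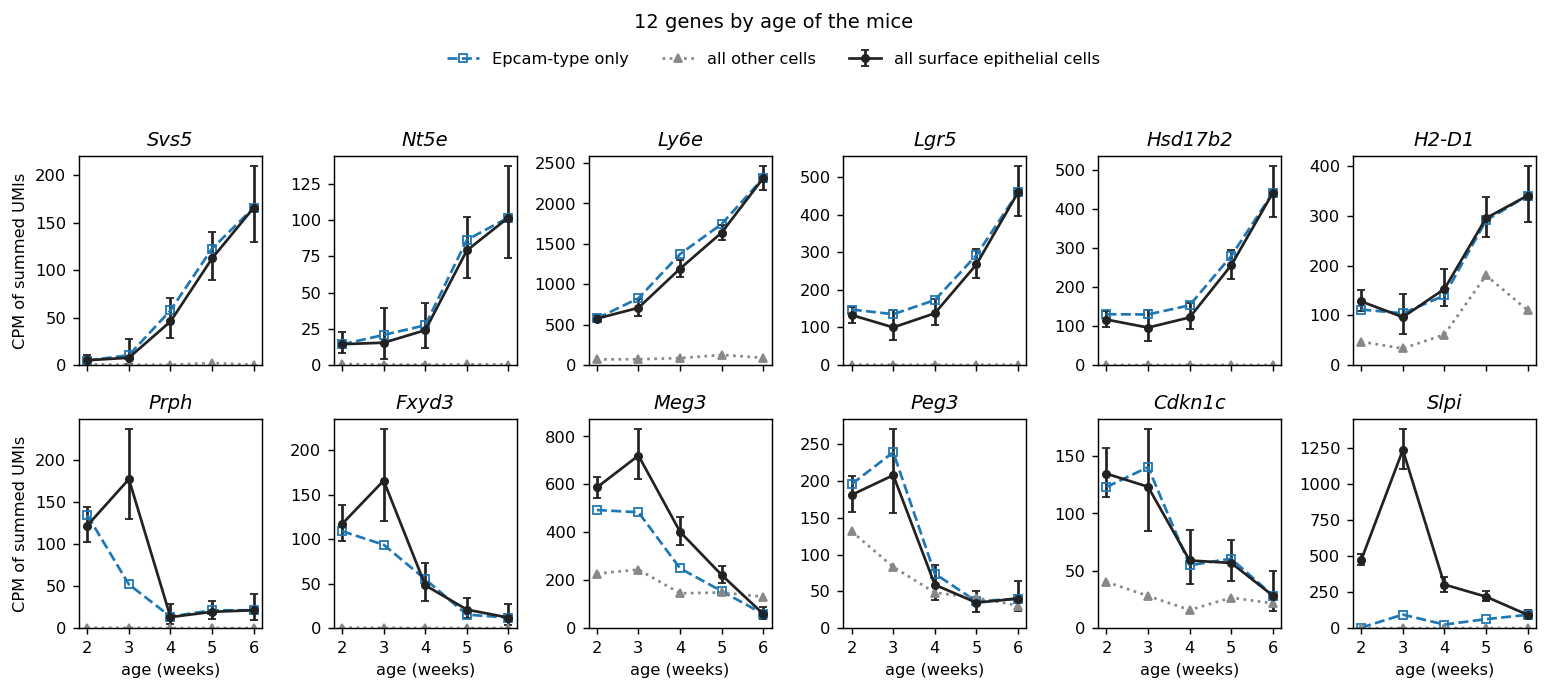
Levels in CPM of summed UMIs (y axes, each with its own scale from 0) against age (x axes, weeks) for 6 genes called higher and 6 called lower at 5 and 6 wk; black points are all surface epithelial cells with 95% Poisson intervals, blue squares Epcam-type cells alone and grey triangles all other cells. Svs5 climbs from 5.08 to 166 CPM and Meg3 falls from 587 to 59.1 CPM between 2 and 6 wk, while the fall of Slpi is absent from the Epcam-type cells.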

How the data were processed

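Live single cells of mouse ovaries were analysed, with 1 library for each week of age from 2 to 6 wk. The authors deposited raw UMI counts per gene and cell, made with Cell Ranger (3.1.0 in the headers at 2 to 4 wk, 6.0.1 at 5 and 6 wk) on mm10, and the submitters' processing notes also name Seurat 4.1.0. The deposited counts were read without normalization. Library totals were 124938004, 93438618, 117666094, 107071492 and 144609431 UMIs, and 8075, 8079, 9508, 6923 and 9285 cells passed the filters.

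UMIs were summed per library and scaled to CPM. Levels carry exact Poisson intervals, shares exact Clopper-Pearson intervals and ratios conditional exact intervals. A gene with no UMI was given 3 counts as its upper limit in ratios. Calls need 2-fold in each library, or in all 4 ratios between ages, and at least 100 UMIs. No test was run: an age has a single library, and the cells were chosen by their own expression, so a test against the other cells of their libraries would be circular. Granulosa and stromal cells had no UMI of Ptprc or Cdh5 and at most 1 marker of each other, and hematopoietic cells had Ptprc and at least 3 of Laptm5, Tyrobp, Fcer1g, Cd52 and Coro1a. Scrublet was run in scanpy 1.11.5, with Python 3.11.15, numpy 2.4.6, pandas 2.3.3, scipy 1.17.1 and matplotlib 3.10.9, and seed 1. On simulated counts of 4385 genes, 47 to 50 of 50 genes of each fold were called against the other cells and 0 of 4185 unchanged genes. The folds were 4, 8, 0.25 and 0.125, and counts were drawn as Poisson with the same level in all libraries. With no spread between cells or libraries and no fold near 2, these counts give no error rate for the real calls.

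The named genes were those of the rule, the 4 most abundant and the called genes of 24 lists, the 20 highest and 10 lowest against the other cells, the 10 extreme genes each way across ages, and the 10 highest against granulosa, stromal and Pax8-positive cells. The members and lists were chosen with earlier results of these data known. A few genes of the lists are not reported here.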

Additional observations from a re-analysis of the deposited data

Results flagged for a closer look

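Ccnd1, which encodes cyclin D1 and drives entry into the cell cycle, stood above the other cells at the early ages and below them at the late ones. In the surface epithelial cells it was at 71.2 and 46.2 CPM at 2 and 3 wk and at 9.70 and 0 CPM at 5 and 6 wk. The ratio to the other cells was 3.03 and 2.14 at 2 and 3 wk, 0.469 at 5 wk and, with 3 counts as the limit for no UMI, at most 0.414 at 6 wk. At 4 wk it was at 4.37 CPM, a ratio of 0.384. The difference between ages was not tested, since each age has a single library. Over the pooled libraries the late to early ratio of Ccnd1 was 0.0918 in all surface epithelial cells. In the Epcam-type cells alone, where it had under 100 UMIs and was not tested, the ratio was 0.105 (0.0408 to 0.227).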

How the results depend on the processing

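The number of surface epithelial cells (218 to 309) and their share at each age stayed within 1.5 times or within the counting interval under every rule tried: 2 or 4 of the 5 markers, stricter filters, the excluding genes ignored, doublets left out, or cells with markers of another type left out. Leaving out the Slpi-type cells and, for ages, each library in turn were alternatives added after the data had been seen. Against the other cells, 305 genes were higher and 71 lower with at least 200 UMIs, 861 were higher with a UMI in every library as the only filter, and 250 were lower by the mean of per-cell CPM, 61 with 2 of 5 markers and 223 without the cells with markers of another type. Leaving out a library gave 500 to 513 higher and 127 to 225 lower genes, the latter without 4 wk. Across ages, 59 genes were higher and 62 lower with at least 50 UMIs, 21 and 17 with at least 200, and 90 and 119 with a UMI in every library only. With a library of 2, 3, 5 or 6 wk left out, which leaves 2 of the 4 ratios, 53 to 252 were higher (252 without 2 wk, 88 without 5 wk, 73 without 3 wk) and 52 to 168 lower (168 without 5 wk, 114 without 2 wk, 70 without 3 wk). Without ribosomal protein and mitochondrial genes in the total the median log2 ratio of all genes fell by 0.14, with 433 higher and 180 lower. Of 1160 levels of named genes 1019 stayed within their counting interval without doublets, 947 by the mean of per-cell CPM and 707 without the cells with markers of another type. Of 185 summed levels of lists these numbers were 139, 107 and 76. After thinning, 355 of 1000 shares of cells with a UMI of a gene stayed within theirs. Ratios to the other cells were taken within each library, but no paired test was run on them, because the cells were chosen by their own expression, and ages have a single library each. Depth limits most the 3 wk library, with 36 cells.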

Other observations

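Cells that met at least 3 of the 5 markers but held a UMI of an excluding gene numbered 28 of 294. Pax8 was found in 13 of them (6, 5, 0, 2 and 0 at 2, 3, 4, 5 and 6 wk), and 12 of these 13 had a UMI of Upk3b while 1 had one of Cdh16, a cadherin of kidney and rete tubules. Cdh5 was found in 17, with 1 UMI in 9 and at most 4 in any of them. Of these 17 cells 15 had a UMI of Esam and 16 of Upk3b, but 3 of Pecam1 and 1 of Flt1. Their median depth was 30240 UMIs, against 9970 in the 13 cells with Pax8 and 9273 in the 266 cells kept. No cell with 3 markers held a UMI of Ptprc. Another 28 cells with 3 markers failed the filters on cell quality (4, 1, 6, 3 and 14 at 2, 3, 4, 5 and 6 wk).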
